A study of Mus musculus with 4 samples.

Results

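Cycling mesothelial-like cells were the cells of B16-F1-OVA tumors that carried transcripts of the mesothelium, the sheet of flat cells that lines the peritoneal cavity and covers its organs, together with transcripts of cell division. They were chosen by measured values. A cell had to show at least 4 of the 8 cell cycle genes *Mki67*, *Top2a*, *Cdk1*, *Birc5*, *Ube2c*, *Prc1*, *Tpx2* and *Ccna2*, and at least 3 of the 10 mesothelial genes *Msln*, *Upk3b*, *Upk1b*, *Lrrn4*, *Wt1*, *Krt19*, *Cldn10*, *Cldn15*, *Cldn3* and *Gpm6a*. It could show at most 2 of the 6 matrix genes *Mfap4*, *Smim41*, *Cilp*, *Lpl*, *Sfrp1* and *Svep1*, and none of *Ptprc* (CD45) or *Pax3*. Of 21791 cells kept, 7598 met the mesothelial and matrix limits (the mesothelial gate), and 2845 of these were cycling. The comparison was with 3725 cells of the same gate that showed at most 1 cycle gene, called non-cycling below, while 1028 cells with 2 or 3 cycle genes were in neither group.

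The tumors grew for 14 days after 400000 B16-F1-OVA melanoma cells, a B16 line that carries ovalbumin, had been injected intraperitoneally into Cxcl13-cre-tdTomato X R26R-eGFPflox mice, host strain C57Bl/6. All 4 populations came from these mice, in which the *Cxcl13* promoter drives tdTomato and cre. Where cre has removed a stop cassette, eGFP stays on in the cell and in its descendants. Cells without eGFP can still have used the promoter, as those with tdTomato alone show. CD45neg CD31neg PDPNhi cells, which the labels call cancer-associated fibroblasts (CAF), were sorted into tdTomato-neg eGFP+, tdTomato+ eGFP-neg, tdTomato+ eGFP+ and tdTomato-neg eGFP-neg populations, and each was sequenced as 1 library. Values listed per population below follow this order. The number and age of the mice behind each library are not given in the sources used here. There was no replicate of any population, so no test was run, an SD over the 4 libraries describes 4 different populations, and intervals cover counting error only.

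Division runs in a fixed order. In G1 the cell licenses its replication origins, in S phase it copies its DNA, and in G2 and mitosis it condenses the chromosomes, attaches them to the spindle and separates them. Genes of replication are controlled largely by E2F factors, and those of G2 and mitosis by the DREAM and B-MYB-MuvB complexes, FOXM1 and NF-Y. Mesothelial cells divide rarely in a healthy peritoneum and proliferate after injury or inflammation, when they can also take on fibroblast features.

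The 4 libraries held 10071954 to 90259852 UMIs (unique molecular identifiers, 1 for each captured transcript) over 984 to 11745 barcodes, with medians of 5443 to 9041.5 UMIs per kept cell, and pairs of libraries shared 2 to 15 barcodes. Cycling cells were deeper than non-cycling cells, with a median of 12847 against 7294 UMIs and 3518 against 2393 genes. The ratio of the median UMIs was 1.74, 1.54, 1.48 and 1.95 in the 4 populations. Levels are given as counts per 1000000 UMIs (CPM), after adding up the UMIs of all cells in 1 group of 1 library, and differences on the log2(CPM + 1) scale as the mean ± SD over the 4 libraries. A gene was called higher or lower where the mean difference was at least 1 (a 2-fold change) and had the same sign in every library. Genes were tested against this rule where the CPM, averaged over both groups and the libraries, was at least 5. A gene near 0 in 1 group could pass through its level in the other, as *Mybl2* did with 12.5 CPM in cycling against 0.945 CPM in non-cycling cells. Counts of called among tested genes include genes that were tested only for this reason.

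The label was checked on genes that had not been used to choose the cells, by setting cycling cells of the mesothelial gate against 805 cycling cells of a matrix gate, which showed at least 3 of the matrix genes and at most 2 of the mesothelial genes. Both gates were drawn on mesothelial and matrix genes, so part of a contrast in related genes is built in. Of 19 further mesothelial genes, 12 were higher in the mesothelial gate in all 4 libraries and 4 were lower in all 4. *Calb2* (calretinin) was in neither set, at 0.875 against 2.10 CPM and higher in 2 libraries. *Nkain4* was at a mean of 399.8 against 9.84 CPM and *Pkhd1l1* at 141 against 0.820 CPM. The keratins of simple epithelia and mesothelium were at 105 against 1.56 CPM for *Krt8* and at 92.2 against 1.14 CPM for *Krt18*. Going the other way, *Aldh1a2* was at 76.2 against 670 CPM, *Tcf21* at 1.29 against 29.7 CPM, *Sulf1* at 59.5 against 185 CPM and *Isl1* at 13.1 against 19.3 CPM. Of 10 fibroblast markers, 6 were lower in the mesothelial gate in all 4 libraries, *Dpt* with 27.1 against 435 CPM and *Lum* with 21.9 against 275 CPM among them. *Dcn*, a collagen-binding proteoglycan, was at 2610 against 1907 CPM and *Pdgfra* at 196 against 173 CPM, so these fibroblast genes were present at similar or higher levels in the mesothelial gate. The genes printed here from these lists were picked after their values were seen.

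The rule genes themselves describe how the members were chosen and support nothing further. In cycling cells *Mki67*, which marks dividing nuclei, was at 207, 223, 246 and 174 CPM, against 4.2, 1.81, 1.86 and 4.45 CPM in non-cycling cells. *Top2a*, the topoisomerase that untangles copied DNA, was at 422, 494, 574 and 423 CPM in cycling cells, and *Birc5*, a subunit of the chromosomal passenger complex, at 303, 276, 335 and 302 CPM. Members showed a median of 7 of the 8 cycle genes and 6 of the 10 mesothelial genes. A count of 3 mesothelial genes was found in 477 members and all 10 in 96. At the edge of the cycle rule, 359 cells with 4 cycle genes had 902 CPM summed over 20 further genes of mitotic entry and exit, and 448 cells with 3 cycle genes, just outside, had 664 CPM. At the edge of the mesothelial rule, the 477 cycling cells with 3 mesothelial genes had 748 CPM summed over the 19 further mesothelial genes, and 555 cycling cells with 2, just outside, had 590 CPM. Cycling cells with 2 matrix genes, inside, numbered 127 and had 3784 CPM of fibroblast markers, while the 69 with 3, outside, had 4034 CPM.

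Cycling cells made up 37.4% of mesothelial-gate cells (exact 95% binomial interval 36.4 to 38.5%). By population the share was 38.3% (36.6 to 40.0%; 1237 of 3229 cells), 34.6% (31.6 to 37.8%; 321 of 927), 40.4% (33.7 to 47.4%; 84 of 208) and 37.2% (35.5 to 38.9%; 1203 of 3234). The intervals of the 4 populations overlapped or met. Since deeper cells show more genes, cells were also thinned to 3500 UMIs each and the gates applied again. This left out 967 shallower cells, and the set of cells meeting the gate also changed. By population the thinned gate held 1924, 419, 115 and 1974 cells, against 2876, 892, 186 and 2677 gate cells deep enough to be thinned. The share was then 26.6% in all, and 27.2% (25.2 to 29.2%), 20.0% (16.3 to 24.2%), 35.7% (26.9 to 45.1%) and 27.0% (25 to 29.0%) by population. Here the tdTomato+ eGFP-neg interval lay below the other intervals. The gate was also kept as drawn at full depth, with only the cycle genes counted after thinning. The shares were then 26.1, 24.8, 33.9 and 28.0%, without intervals. Separation of tdTomato+ eGFP-neg beyond counting error was seen with the gates applied again and not at full depth. With the gate kept as drawn it was not assessed.

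In the matrix gate the cycling share was 25.8% of 3124 cells (24.2 to 27.3%). After thinning it was 15.0% of the 1607 cells that then met the gate (13.3 to 16.8%). By population the full-depth share was 32.2% (26.6 to 38.2%), 36.0% (31.8 to 40.4%), 42.9% (30.5 to 56.0%) and 22.3% (20.6 to 24.1%). The mesothelial share therefore lay above the matrix share beyond counting error in the tdTomato-neg eGFP-neg population, which held 2297 of the 3124 matrix-gate cells, whereas in the other populations the intervals overlapped. In all, 5733 kept cells showed at least 4 cycle genes, of which 2083 were in neither gate.

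**Figure D1:**
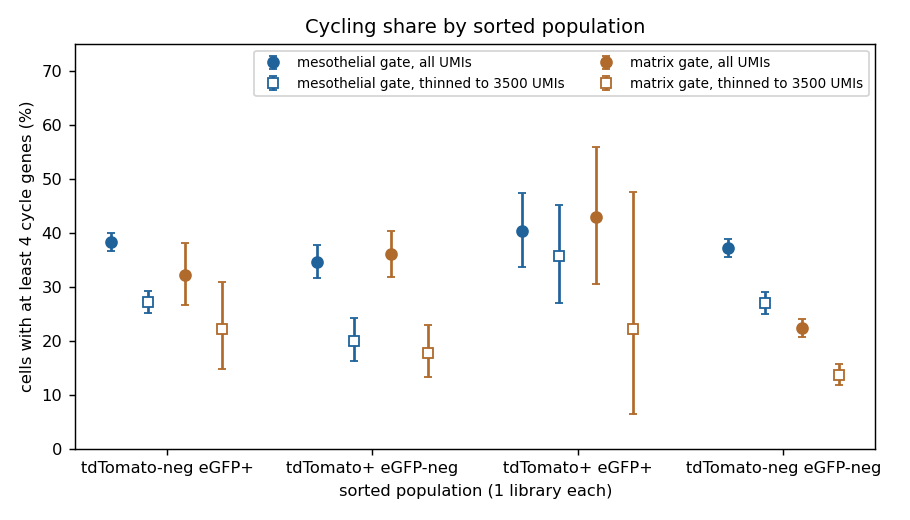
Share of cells with at least 4 cycle genes (y axis, %) in each sorted population (x axis), for the mesothelial gate (blue) and the matrix gate (brown), at full depth (filled) and after thinning to 3500 UMIs (open). Bars are exact 95% binomial intervals. With the gates applied again after thinning, the mesothelial share runs from 20.0% in tdTomato+ eGFP-neg to 35.7% in tdTomato+ eGFP+.

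Over all 9695 genes tested outside the rule, 479 were called higher in cycling cells (4.94%) and 42 lower (0.433%), and the median difference was 0.07. The members were selected on 8 genes that move with these, so the counts are given as description. The 10 lists of cycle genes outside the rule held 208 genes, of which 202 were tested, 149 were called higher and 0 lower. The other genes called higher lay outside these lists.

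Among these lists, the genes of mitosis had the highest medians. All 24 kinetochore and checkpoint genes were called higher (median difference 3.81), as were all 23 tested genes of the spindle and cytokinesis (4.29) and 17 of 19 tested genes of mitotic entry and exit (3.77). Their summed levels were 2054 against 143 CPM, 1635 against 74.7 CPM and 1666 against 203 CPM. In non-cycling cells of the small tdTomato+ eGFP+ library 6, 10 and 7 of these genes had no UMI at all. With each set to the bound that 3 UMIs per library allow, the medians were 3.79, 4.06 and 3.54.

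*Cenpf*, a kinetochore protein that builds up in G2, was at 329, 354, 508 and 348 CPM in cycling cells and at 3.76, 0.804, 0.931 and 5.27 CPM in non-cycling cells (13517 against 115 UMIs in all). *Ccnb1*, the cyclin that activates CDK1 at mitotic entry, was at 109, 124, 149 and 84.3 CPM in cycling cells against 3.11, 0.804, 0 and 2.82 CPM, so that the difference in the tdTomato+ eGFP+ library was at least 53.4-fold against 3 UMIs. *Hmmr*, a spindle-associated protein, was at 168, 197, 252 and 160 CPM against 3.04, 2.61, 0.931 and 5.0 CPM. For all 3 genes the highest cycling value was in the tdTomato+ eGFP+ population, the one with the fewest cells, and no cycling value overlapped a non-cycling one. *Cdc20*, the activator of the anaphase-promoting complex, differed by 4.97 ± 0.50, *Plk1*, the polo kinase of mitosis, by 5.6 ± 1.07 and *Aurkb*, the kinase of the passenger complex, by 5.27 ± 0.68. *Cenpe*, a kinetochore motor, differed by 6.00 ± 1.13, *Knl1*, the scaffold of the checkpoint, by 4.99 ± 0.50 and *Cdca8* (borealin) by 4.82 ± 0.31. Among spindle genes *Nusap1* differed by 5.54 ± 0.79, the motor *Kif11* by 5.40 ± 0.75 and *Ckap2l* by 5.39 ± 1.11. *Plk1*, *Aurkb*, *Cenpe*, *Kif11* and *Ckap2l* had no UMI in non-cycling tdTomato+ eGFP+ cells, so their difference there rests on the 1 CPM added. Against 3 UMIs it was at least 5.28 for *Plk1* and 5.55 for *Ckap2l*.

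The promoters shown are those of the called gene with the greatest mean difference in each of 4 lists. All 4 carry at least 1 match to the letters by which NF-Y (CCAAT) or the MuvB complexes (TTTGAA, the cell cycle homology region) are known to bind. Each is the RefSeq window of 300 bases on build GRCm38.p6, 250 before and 50 after the start, 5′ to 3′ on the gene's own strand, with capitals where the NF-Y or MuvB letters match on either strand. The letters TTTNNCGC, with each N a cytosine or guanine, were also searched on both strands (the E2F-type match) and had no match in these windows. All 4 genes lie on the minus strand, *Ccnb1* at chr13:100786437-100786736, *Cenpf* at chr1:189688037-189688336, *Hmmr* at chr11:40733388-40733687 and *Dbf4* at chr5:8422667-8422966.
Ccnb1: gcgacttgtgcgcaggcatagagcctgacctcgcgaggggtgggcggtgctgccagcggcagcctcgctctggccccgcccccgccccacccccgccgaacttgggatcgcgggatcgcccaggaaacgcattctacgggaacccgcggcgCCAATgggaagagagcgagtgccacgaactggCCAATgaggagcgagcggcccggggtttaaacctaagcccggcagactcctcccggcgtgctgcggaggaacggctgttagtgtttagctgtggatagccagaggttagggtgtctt
Cenpf: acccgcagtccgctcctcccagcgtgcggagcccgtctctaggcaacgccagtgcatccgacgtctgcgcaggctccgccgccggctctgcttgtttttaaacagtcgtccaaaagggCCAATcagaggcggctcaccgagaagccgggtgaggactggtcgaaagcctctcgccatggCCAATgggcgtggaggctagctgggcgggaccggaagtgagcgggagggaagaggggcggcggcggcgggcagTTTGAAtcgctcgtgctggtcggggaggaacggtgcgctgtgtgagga
Hmmr: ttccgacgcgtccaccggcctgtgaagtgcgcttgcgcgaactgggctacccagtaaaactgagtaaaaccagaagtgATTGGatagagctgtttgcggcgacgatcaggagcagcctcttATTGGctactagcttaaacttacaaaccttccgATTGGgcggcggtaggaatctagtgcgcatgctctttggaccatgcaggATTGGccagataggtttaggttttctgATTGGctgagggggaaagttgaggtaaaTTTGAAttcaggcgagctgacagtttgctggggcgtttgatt
Dbf4: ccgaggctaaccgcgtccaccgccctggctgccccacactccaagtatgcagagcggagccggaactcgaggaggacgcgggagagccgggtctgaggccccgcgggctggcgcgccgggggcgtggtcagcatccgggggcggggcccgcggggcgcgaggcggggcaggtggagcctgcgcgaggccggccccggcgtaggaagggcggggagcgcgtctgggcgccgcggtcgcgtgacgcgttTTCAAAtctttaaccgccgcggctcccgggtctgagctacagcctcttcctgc

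*Hmmr* held 5 CCAAT matches, *Cenpf* and *Ccnb1* 2 each and *Dbf4* 0, while TTTGAA matched once in *Cenpf*, *Hmmr* and *Dbf4* and not in *Ccnb1*. Windows were found by symbol for 56 of 64 called genes of the 3 mitosis lists and 39 of 47 called genes of the 3 replication lists. At least 1 CCAAT on either strand was found in 71.4% of the mitosis genes and 59.0% of the replication genes, against 41.1% of all 27025 genes of the table outside chromosome 18 and 43.2% of those tested here. TTTGAA was found in 67.9% of the mitosis genes and 17.9% of the replication genes, against 20.2% of all genes and 14.4% of those tested. For the E2F-type match the order was the other way, with 5.36% of mitosis genes and 38.5% of replication genes, against 2.61% of all genes and 5.12% of those tested. CCAAT and TTTGAA stood in the same window for 51.8% of mitosis genes and 7.69% of replication genes, against 7.97% of all genes. The 3 sets of letters do not contain one another, and a match in a window is a description of sequence and not of binding.

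Genes of DNA replication were higher by smaller amounts, in cells chosen mostly on genes of G2 and mitosis. Of the licensing genes, which load and fire the MCM helicase, 15 of 18 tested were called higher (median 1.58), of the fork genes 22 of 25 (median 1.60) and of the genes of nucleotide synthesis 10 of 16 (median 1.14). *Dbf4*, whose product activates the CDC7 kinase at origins, was at 77.9, 74.8, 85.5 and 82.5 CPM in cycling cells against 7.53, 9.64, 4.65 and 8.18 CPM. *Rrm2*, the regulated subunit of ribonucleotide reductase, was at 90.1, 83.1, 102 and 86.9 CPM against 5.36, 6.23, 2.79 and 10.4 CPM. The groups did not overlap for either gene, and the cycling values of *Dbf4* spanned a narrower range than those of the mitotic genes above. The helicase cofactor *Cdc45* differed by 2.95 ± 0.47, *Mcm10* by 2.51 ± 0.57 and *Gmnn* (geminin, the inhibitor of relicensing) by 2.47 ± 0.35. At the fork the histone chaperone *Asf1b* differed by 3.67 ± 0.23, the clamp loader subunit *Rfc4* by 2.60 ± 0.50, the primase *Prim1* by 2.60 ± 0.73 and the leading-strand polymerase *Pole* by 2.53 ± 0.41. In nucleotide synthesis thymidine kinase *Tk1* differed by 3.75 ± 0.70 and thymidylate synthase *Tyms* by 2.33 ± 0.36.

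Genes of condensin and cohesin had a median of 2.00, above those of the 3 replication lists. The condensin subunits *Ncapg*, *Ncapd2* and *Ncaph* differed by 4.54 ± 0.58, 3.77 ± 0.97 and 3.5 ± 0.45, and *Smc2* by 4.12 ± 0.57, and 9 of 14 genes of condensin and cohesin were called higher. *Ncapg* and *Ncapd2* had no UMI in non-cycling tdTomato+ eGFP+ cells. Of 22 genes of chromatin and tubulin, 21 were called higher (median 1.64), and their summed level was 9164 against 3082 CPM. *Hmgb2*, an abundant chromatin protein, was at 786, 751, 817 and 832 CPM against 95.2, 83.2, 92.1 and 101 CPM, a difference of 3.09 ± 0.07. The tubulin-binding *Stmn1* differed by 2.74 ± 0.77, the lamin *Lmnb1* by 2.49 ± 0.44 and the variant histone *H2ax* by 2.79 ± 0.32.

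Regulators of the G1 to S step showed a mixed picture, with 6 of 22 tested genes called higher and 0 lower (median 0.64). Of all tested genes 4.94% were called higher. The called genes were the late factors *Foxm1* (3.31 ± 0.35), *Mybl2* (2.87 ± 0.68) and *E2f8* (2.85 ± 0.61), the pocket protein *Rbl1* (2.10 ± 0.31), cyclin *Ccne2* (1.83 ± 0.58) and the MuvB subunit *Lin54* (1.55 ± 0.27). *Mybl2* had no UMI in non-cycling tdTomato+ eGFP+ cells. Outside the call, cyclin *Ccnd1* was at a mean of 103 against 107 CPM and *Ccnd2* at 29.6 against 52.9 CPM, the latter with lower values in all 4 libraries. *Ccne2*, *Lin54*, *Ccnd1* and *Ccnd2* were named after their values were seen.

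Of 19 tested CDK inhibitors and p53 targets, 2 were called higher and 0 lower, where 4.94% and 0.433% of all tested genes were. *Cdkn2d* (p19INK4d), an inhibitor of CDK4 and CDK6 whose level is known to oscillate with the cycle, was at 94.5, 95.7, 106 and 96.1 CPM in cycling cells and at 16.7, 17.5, 17.7 and 16.9 CPM in non-cycling cells, a difference of 2.44 ± 0.05. *Cdkn2c* (p18INK4c), its relative, was at 65.4, 72.3, 83.9 and 54.4 CPM against 31.6, 38.2, 30.7 and 25 CPM (1.11 ± 0.22). *Cdkn1a* (p21), the main p53-induced inhibitor, was at a mean of 154 against 172 CPM and *Btg2*, an antiproliferative gene, at 125 against 205 CPM, and neither was called. These last 2 were named after their values were seen.

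**Figure D2:**
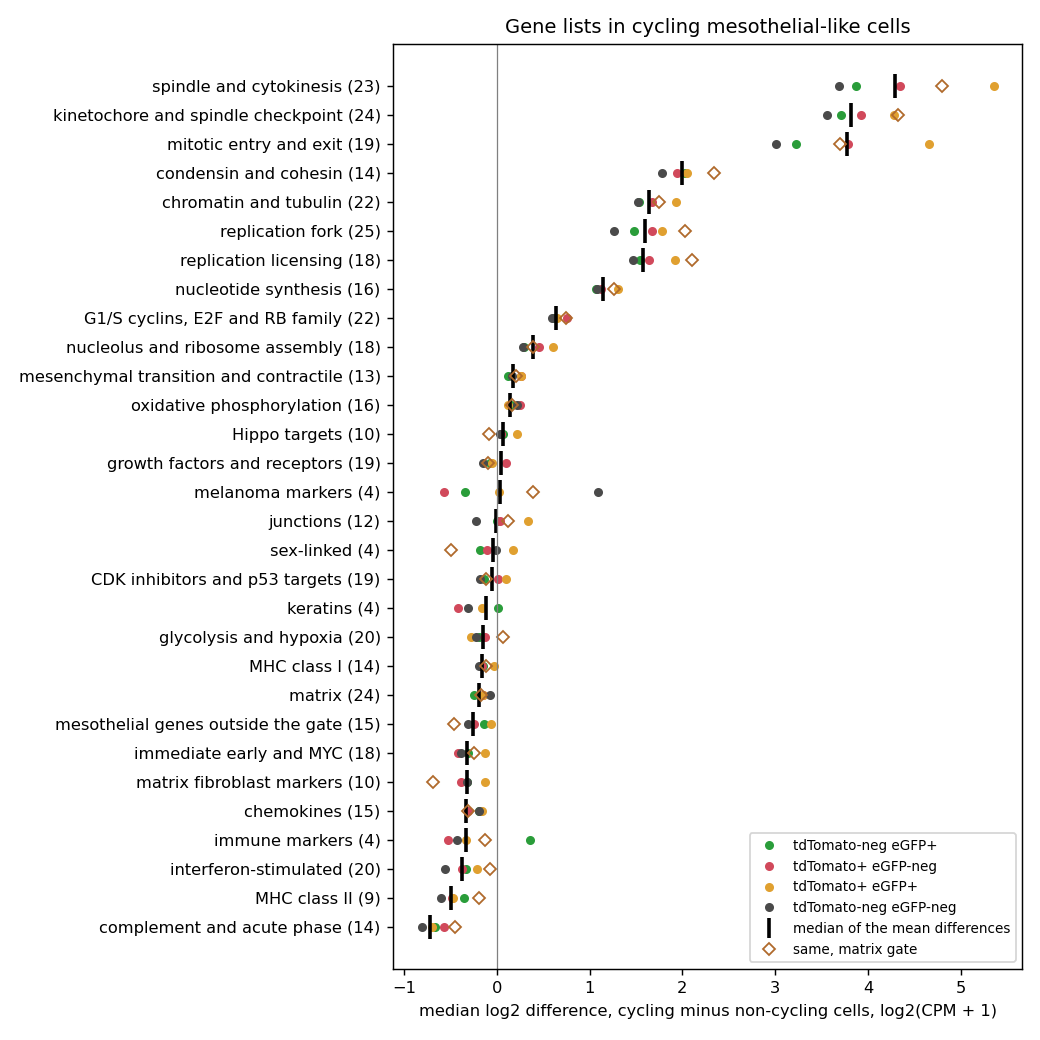
Median log2 difference, cycling minus non-cycling cells (x axis), over the tested genes of each list (y axis, number tested in brackets). Points are the 4 libraries, black bars the median of the mean differences in the mesothelial gate, and open diamonds the same in the matrix gate. The mitosis lists lie between 3.77 and 4.29, the replication lists between 1.14 and 1.60, and complement at -0.72. All values are over all depths.

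Over cells the replication and mitosis genes ran in opposite directions among the members. The 60 replication genes (licensing, fork and nucleotide lists) had a median of 30.8 UMIs per 10000 in cycling cells (quartiles 22.1 and 44.2) against 10.1 in non-cycling cells. The 68 mitosis genes had 46.4 (quartiles 28.9 and 70.1) against 3.60. The rank correlation of the 2 sums was -0.33 over 2845 cycling cells and -0.35, -0.37, -0.60 and -0.31 within the populations, and it was 0.30 over 3725 non-cycling cells. Both sums share the UMI total of the cell, and cells of a library are not independent samples. The members were also selected on genes of the cycle, which can shape such a correlation, so these values are a description.

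**Figure D3:**
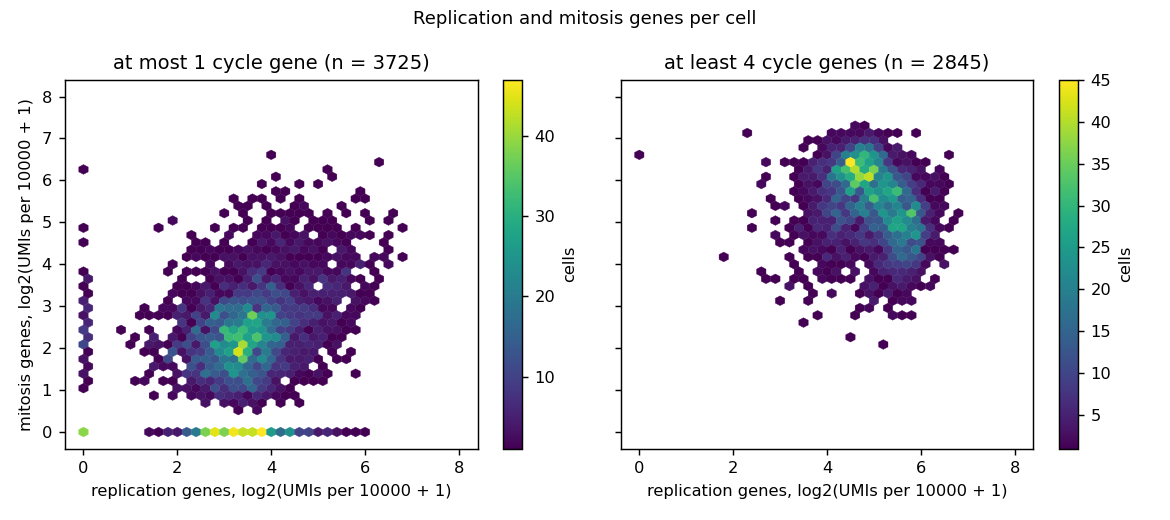
Mitosis genes (y axis) against replication genes (x axis) per cell, each as log2(UMIs per 10000 + 1), for non-cycling cells (left) and cycling cells (right). Colour gives the number of cells in a bin. Among the 2845 cycling cells the dense bins slope downward, from cells high in replication genes to cells high in mitosis genes.

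The lists were also followed over the number of rule genes detected. Most of the 8 rule genes belong to G2 and mitosis and the median depth went from 6659 UMIs at 0 genes to 17544 at 8, so a climb of mitosis genes along this axis is built in and the values are a description only. Summed licensing genes were at 193 CPM in the 2530 cells with 0 cycle genes, at 737 CPM in those with 4, at 797 CPM in those with 6 and at 639 CPM in the 1059 cells with all 8. Cyclin E2 (*Ccne2*), which peaks at the G1 to S step, went from 2.28 to 22.5 CPM at 6 genes and was at 7.46 CPM at 8. Summed genes of the spindle and cytokinesis went from 69.0 CPM at 0 genes to 572 CPM at 4, 973 CPM at 6 and 2028 CPM at 8. By library, the summed replication genes of cells with all 8 rule genes stood against those of cells with 6 or 7 as follows (3271 against 3733, 3195 against 3621, 3365 against 3560 and 3066 against 3460 CPM), and the summed mitosis genes likewise (6645 against 4149, 6566 against 4402, 7357 against 4988 and 6222 against 4070 CPM).

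**Figure D4:**
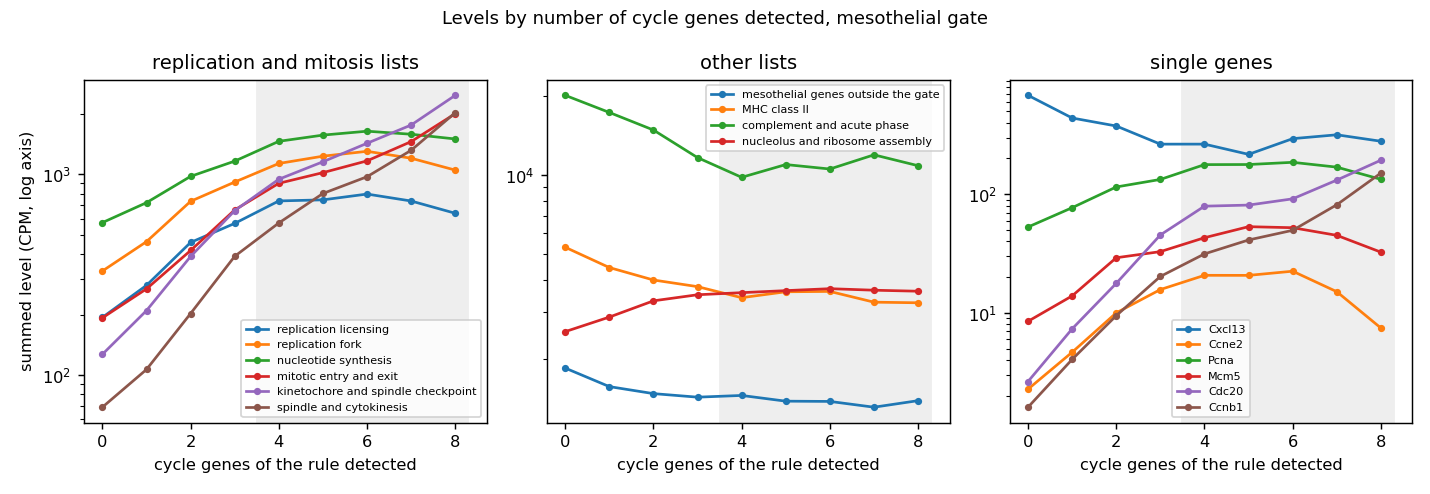
Summed level (y axis, CPM, log axis) of gene lists and single genes by the number of the 8 rule genes detected (x axis) in mesothelial-gate cells, pooled over libraries. Shading marks the cells with at least 4. Spindle genes reach 2028 CPM at 8 genes, licensing genes peak at 797 CPM at 6, and *Cxcl13* goes from 680 CPM at 0 to 279 CPM at 8, pooled over populations that differ widely in this gene.

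*Cxcl13*, the B cell chemokine whose promoter drives the reporters, was called lower in cycling cells. It was at 69.0, 1582, 510 and 104 CPM in cycling cells and at 214, 2362, 1359 and 184 CPM in non-cycling cells, a difference of -1.11 ± 0.49. Each population was lower when cycling, and the order between populations was wider than this difference, with both tdTomato+ populations above both tdTomato-neg populations in either group. The mean difference was short of the call under 6 of 19 alternatives. It was -0.93 without the tdTomato-neg eGFP+ library, -0.73 with at least 4 mesothelial genes required, -0.86 with no matrix gene detected, -0.89 and -0.98 in *Xist*-only and Y-only cells and -0.96 as a mean of per-cell CPM. By the number of cycle genes detected (0, 1 to 3, 4 to 5, 6 to 7 and 8), *Cxcl13* was at 216, 201, 112, 96.1 and 32.2 CPM in tdTomato-neg eGFP+ cells and at 2476, 1898, 1664, 1546 and 1587 CPM in tdTomato+ eGFP-neg cells. It was at 1358, 856, 258, 807 and 455 CPM in tdTomato+ eGFP+ cells, with 14 cells at 4 to 5 genes, and at 234, 117, 101, 135 and 81.8 CPM in tdTomato-neg eGFP-neg cells. The level was lower at 8 genes than at 0 in each population, with different steps between. *Pdpn*, the protein used for sorting, was at 289, 346, 263 and 250 CPM against 357, 357, 319 and 313 CPM, and the adhesion molecule *Vcam1* at 490, 454, 386 and 460 CPM against 576, 494, 434 and 568 CPM, and neither was called. The reporter transcripts are not among the features of the files.

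Of 15 tested chemokines, *Cxcl13* was the only one called, and the median was -0.34. In the complement and acute phase list 13 of 14 tested genes had a lower level in every library, where 19.7% of all tested genes did, 1 was called lower and 0 higher, and the median was -0.72. Its summed level was 12772 against 22190 CPM. The called gene was *Lcn2*, an iron-binding acute phase protein, at 93.9, 346, 158 and 88.0 CPM against 184, 494, 479 and 174 CPM (-1.01 ± 0.44). This call sat at the threshold, since the mean difference was short of it under 10 of 19 alternatives, with -0.79 when at least 4 mesothelial genes were required and -0.82 without the tdTomato+ eGFP+ library. Complement *C3* was at a mean of 1631 against 2739 CPM and serum amyloid *Saa3* at 7673 against 13713 CPM (both named after their values were seen). Of 20 interferon-stimulated genes 15 were lower in every library and 0 were called (median -0.37), with *Bst2* at 1988 against 2669 CPM and *Iigp1* at 1072 against 1468 CPM.

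Of 9 MHC class II genes, which present peptides to CD4+ T cells, 0 were called (median -0.50). Lower values in every library were seen for 6 of them, and for 19.7% of all tested genes. Between cells of matched depth (8000 to 16000 UMIs, a range chosen after seeing the data) the median was -0.27, *Cd74* was at -0.38 where it was at -0.67 over all depths, and *H2-Eb1* at -0.31 where it was at -0.60. Matched depth, here and below, means only that both groups were limited to this range, and their depths within it were not compared. *Cd74*, the invariant chain, was at 1722, 1770, 1981 and 1904 CPM in cycling cells against 2526, 2793, 3257 and 3189 CPM in non-cycling cells. Its cycling values all lay below the lowest non-cycling value. *H2-Eb1* was at 498 against 753 CPM. MHC class I genes had a median of -0.16, or -0.02 at matched depth, and 0 calls among 14, with *B2m* at 3513 against 4327 CPM and *H2-K1* at 2400 against 2993 CPM.

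**Figure D5:**
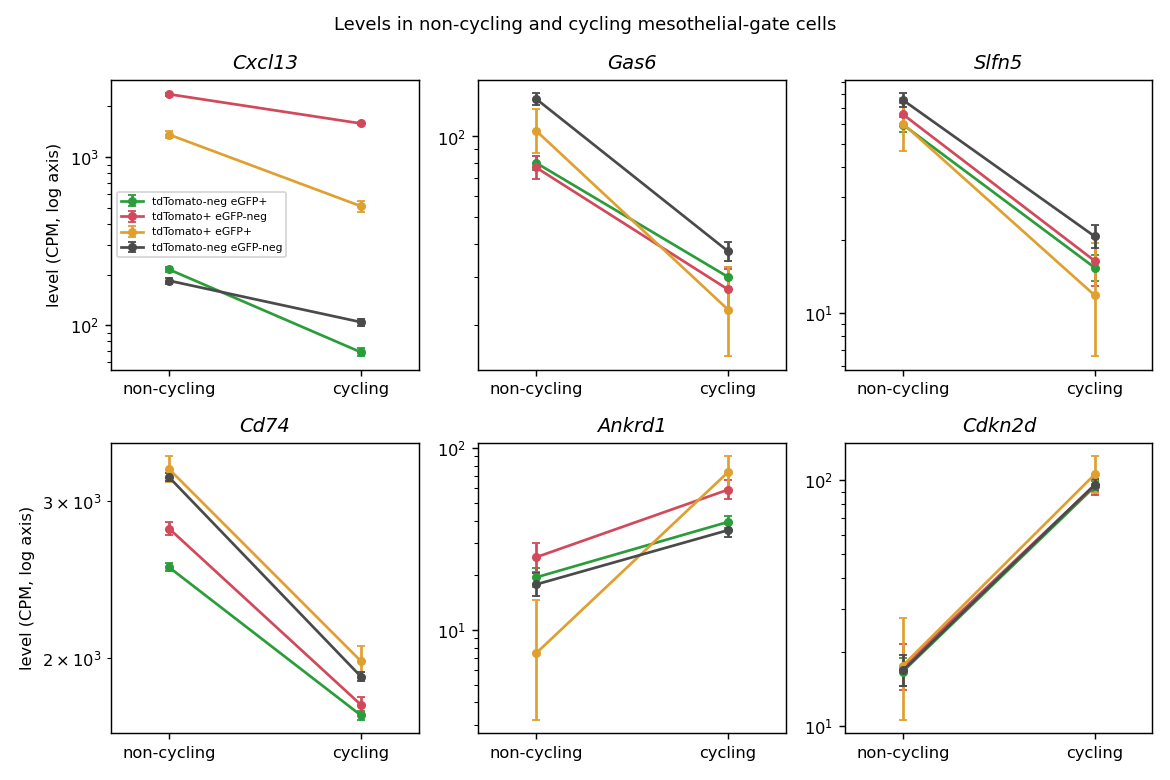
Levels (y axis, CPM, log axes that differ by panel and do not start at 0) of 6 genes in non-cycling and cycling mesothelial-gate cells, with 1 line per sorted population and exact 95% Poisson intervals of counting error. *Cxcl13*, *Gas6*, *Slfn5* and *Cd74* are lower in cycling cells of all 4 populations, and *Ankrd1* and *Cdkn2d* higher.

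Mesothelial genes outside the rule stayed detected in cycling cells, with a summed level of 1300 against 1653 CPM. Of 15 tested, 1 was called lower and 0 higher (median -0.26), and 8 were lower in every library. Of all tested genes 0.433% were called lower and 19.7% were lower in every library. At matched depth the median of the list was -0.0029. The called gene was *Prg4* (lubricin, a surface lubricant), at 27.5, 11.7, 39.2 and 60.0 CPM against 50.3, 25.5, 72.6 and 162 CPM, which was at -0.93 over the other populations with tdTomato-neg eGFP-neg left out and at -0.70 at matched depth. *Nkain4* was at a mean of 399.8 against 615 CPM. Of the rule genes, *Msln* (mesothelin) was at 125, 47.1, 51.7 and 178 CPM against 164, 47.6, 68.9 and 289 CPM, *Wt1*, a transcription factor of the mesothelium, at 269, 296, 307 and 186 CPM against 259, 304, 191 and 179 CPM, and the claudin *Cldn10* at 29.7, 25.3, 21.2 and 36.4 CPM against 49.9, 45.8, 70.7 and 77.2 CPM. Among 4 tested keratins *Krt7* was called lower (-1.10 ± 1.33), but this rested on the tdTomato+ eGFP+ library, where it was at 11 against 99.6 CPM (14 and 107 UMIs), and without that library the difference was -0.44, and at matched depth -0.55.

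Junction genes had 0 calls among 12 (median -0.01), with *Ezr* at 255 against 259 CPM and *Cxadr* at 168 against 230 CPM. Matrix genes had 0 calls among 24 (median -0.19), with *Col3a1* at 6807 against 8341 CPM and *Sparc* at 6290 against 7251 CPM. Genes of mesenchymal transition and contraction had 0 calls among 13 (median 0.18), with *Acta2* at 470 against 350 CPM and *Vim* at 4631 against 4145 CPM. At matched depth the median of this list was 0.07. The difference of *Vim* was then 0.02, where it was 0.16 over all depths, and that of *Acta2* was 0.43, where it was 0.42. Fibroblast markers had 0 calls among 10 (median -0.32), and their summed level was 2743, 3874, 3779 and 2584 CPM in cycling against 4086, 5847, 6333 and 4242 CPM in non-cycling cells. *Dcn* took most of this, at 2610 against 4328 CPM.

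Of the growth and metabolism lists, nucleolus and ribosome assembly had the highest median (0.38), with 13 of 18 genes higher in every library, where 33.2% of all tested genes were, and 0 called. The nucleolar proteins *Ncl* and *Npm1* were at 719 against 466 CPM and at 1585 against 1228 CPM, differences of 0.63 and 0.36 that were 0.42 and 0.08 at matched depth. Oxidative phosphorylation had a median of 0.15 with *Cox4i1* at 923 against 935 CPM and *Ndufa4* at 829 against 806 CPM, glycolysis and hypoxia -0.15, immediate early genes and MYC -0.32 with *Fos* at 1196 against 1322 CPM and *Ier3* at 1059 against 1305 CPM, and growth factors and their receptors 0.04 with *Igf1* at 159 against 193 CPM and *Vegfa* at 120 against 174 CPM. At matched depth the glycolysis and hypoxia median was -0.30 and the difference of *Vegfa* -0.96, further from 0 than over all depths (-0.53). In the hypoxia list *Car9*, a carbonic anhydrase, was called lower (-1.02 ± 0.94), and it was at -0.56 without the tdTomato+ eGFP+ library, in which cycling cells held 1 UMI. Of 10 tested Hippo targets 1 was called higher, where 4.94% of all tested genes were. This was *Ankrd1*, a target of YAP, at 39.3, 59.1, 73.7 and 35.4 CPM against 19.5, 25.1, 7.44 and 17.8 CPM. Its difference was 1.57 ± 1.06, and 1.04 without the tdTomato+ eGFP+ library, in which non-cycling cells held 8 UMIs. At matched depth it was 0.96, short of the call.

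Outside all lists the 10 called genes with the greatest difference and at least 20 CPM were *Depdc1a* (5.29 ± 0.79), the mitotic kinase *Pbk* (5.15 ± 0.52), the linker histone *H1f5* (5.03 ± 0.85), *Sgo2a*, a protector of cohesin at centromeres (4.93 ± 1.05), *Mxd3* (4.79 ± 0.77), the cohesin acetyltransferase *Esco2* (4.78 ± 0.57), *Dlgap5* (4.48 ± 0.19), *Spdl1* (4.43 ± 0.68), the PCNA partner *Pclaf* (4.28 ± 0.60) and *Shcbp1* (4.04 ± 0.33). *Mxd3* and *Mxd4* are both MAX partners of the MXD family. They stood on opposite sides, with *Mxd3* at 54.9, 43.1, 54.1 and 50.9 CPM in cycling cells against 1.59, 0.402, 0 and 2.27 CPM, and *Mxd4* at 31.2, 31.2, 32.9 and 20.1 CPM against 76.3, 82.8, 80 and 57.5 CPM (-1.34 ± 0.10).

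The lowest differences outside the lists were those of the histone gene *H2bc4* (-2.10 ± 0.44) and of *Slfn5*, an interferon-inducible Schlafen gene (-1.99 ± 0.19). Histone genes are a family with near-identical copies, so the values of *H1f5* and *H2bc4* are uncertain. *Slfn5* was at 15.3, 16.3, 11.8 and 20.6 CPM in cycling cells against 59.9, 66.1, 60.5 and 75.8 CPM. *Gas6*, a growth-arrest gene that encodes the ligand of the TAM receptors, was at 30.1, 27.0, 22.7 and 37.5 CPM against 79.8, 76.7, 105 and 138 CPM (-1.72 ± 0.36). For both genes every cycling value lay below every non-cycling value. The others were *Ear1* (-1.59 ± 0.96), *F830016B08Rik* (-1.25 ± 0.17), the protein C receptor *Procr* (-1.13 ± 0.49), the fatty acid binding protein *Fabp4* (-1.10 ± 0.42), cyclooxygenase 2 (*Ptgs2*, -1.06 ± 0.37) and *Igfbp5* (-1.05 ± 0.55). Between cells of matched depth *Igfbp5* was at -0.04, *Ear1* at -0.82 and *Ptgs2* at -1.66. Over 19 alternatives the mean difference was short of the call under 7 for *Igfbp5*, 4 each for *Procr* and *Ptgs2* and 2 each for *Ear1* and *Fabp4*. *Fabp4*, *Procr* and *Ptgs2* were short of the call without 1 library, at -0.97 and -0.89 without tdTomato+ eGFP+ and at -0.89 without tdTomato-neg eGFP-neg, and *Igfbp5* at -0.90 to -0.99 without tdTomato+ eGFP-neg or without either tdTomato-neg library.

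In the matrix gate, cycling and non-cycling cells differed in 519 genes called higher (5.3%) and 141 called lower (1.44%) of 9793 tested. The tdTomato+ eGFP+ library held 27 cycling and 31 non-cycling cells of this gate and counted as much as any other in each mean. Over the tested genes the median SD over libraries was 0.335, against 0.200 in the mesothelial gate, so the counts of the gates differ in precision. Of the genes called higher, 396 were called in both gates, 82.7% of the mesothelial and 76.3% of the matrix list. Of those called lower, 12 were called in both, 28.6% of the mesothelial and 8.51% of the matrix list. Side by side, *Cenpf* differed by 6.89 ± 1.10 in the mesothelial and 6.21 ± 0.38 in the matrix gate and *Cdkn2d* by 2.44 ± 0.05 and 2.46 ± 0.12. *Cxcl13* was at -1.11 ± 0.49 and -1.65 ± 0.77, *Gas6* at -1.72 ± 0.36 and -1.67 ± 0.42, and *Mxd4* at -1.34 ± 0.10 and -1.03 ± 0.15. *Fabp4* was at -1.10 ± 0.42 in the mesothelial gate and -0.08 ± 0.62 in the matrix gate, *Bst2* at -0.42 ± 0.04 and 0.06 ± 0.12, and the MHC class II median at -0.50 and -0.19. These are values over all depths, and at matched depth *Bst2* was at -0.21 and the MHC class II median at -0.27 in the mesothelial gate, with the matrix gate not computed at that setting. The genes set side by side here were picked from the named genes without a fixed rule. No named gene tested in both gates, and no list, had the same sign in every library of 1 gate and the opposite sign in every library of the other. The difference between gates was not tested for any gene.

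Markers of other cells were low in the members. Summed epithelial markers were at 0.431 CPM against 1.05 CPM in non-cycling cells, with *Epcam* at 0.298 and *Elf3* at 0.061 CPM. Mural markers were at 6.12 against 4.51 CPM, with *Kcnj8* at 2.39 and *Cspg4* at 2.03 CPM. Endothelial markers were at 52.3 against 54.9 CPM, with *Plvap* at 21.8 and *Flt1* at 19.5 CPM, and immune markers at 31.1 against 39.0 CPM, with *Fcer1g* at 8.67 and *Lyz2* at 5.99 CPM. No called gene was in these lists. Melanoma markers were at 17.5, 17.4, 15.7 and 230 CPM in cycling against 21.4, 24.1, 14.9 and 108 CPM in non-cycling cells, so that in the tdTomato-neg eGFP-neg library *Dct* was at 90.3 against 41.1 CPM and *Mlana* at 71.1 against 31.5 CPM. The part of melanoma transcripts in the results of that library was not tested, and without it 526 genes were called higher and 50 lower.

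By doublet score, 8.89% of cycling and 4.78% of non-cycling cells were among the expected number of doublets of their libraries (0 of the tdTomato+ eGFP+ cells in either group). With these cells removed the cycling share was 36.7%. Cells with *Xist* and cells with Y-linked transcripts were both present. Of members with only *Xist* or only Y-linked transcripts 35.7% were *Xist*-only, against 37.6% of non-cycling cells. *Xist* itself was at 116 against 96.4 CPM and *Ddx3y* at 34.3 against 35.2 CPM. Within *Xist*-only cells the cycling share was 41.9% and within Y-only cells 44.2%, in cells that had shown at least 1 UMI of either mark.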

How the data were processed

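Cells were from 4 sorted populations, each 1 library made with 10x 3′ chemistry. The authors deposited unnormalized UMI counts of 33696 features per barcode, and the deposited counts were checked to be whole numbers. The file headers name Cell Ranger 8.0.0, and the submitters' processing notes name Cell Ranger 10.0.0, STAR, Seurat 5.0 and GRCm39. Kept cells had between 500 and 6000 genes, mitochondrial UMIs of 10% or less and 0 UMIs of *Ptprc* and *Pax3*. UMIs were summed per library and group in Python 3.11.15 with numpy 2.4.6, scipy 1.17.1 and pandas 2.3.3, scaled to CPM and compared on log2(CPM + 1). Libraries held 10071954 to 90259852 UMIs, and this depth limits the precision. The 24 rule genes, *Ptprc* and *Pax3* were left out of counts over all genes. Thinning to 3500 UMIs (seed 1) was set in steps of 500 as high as 80% of the cells in every gate and library allowed.

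The members, the 36 gene lists and the comparisons were chosen with earlier results of these data known. Named genes were *Cxcl13*, *Pdpn*, *Vcam1*, the rule genes, in each list up to 4 called genes with the greatest difference or, with none called, the 2 with the highest CPM, and, outside the lists, the 10 highest and 10 lowest differences among called genes with at least 20 CPM. Of these, 1 gene is not reported here. Where a listed symbol had several features, the one with most UMIs was used. Doublets were scored with Scrublet in scanpy 1.11.5, whose own threshold called 0, 0, 6 and 0 cells and so had not worked, and the expected share (0.8% per 1000 barcodes) with the highest scores was removed as an alternative. The sums and the call rule were tested on simulated data. The alternatives were other gates, limits, scalings, pseudocounts and filters, thinned cells, 1 sex mark and each library left out, and matched depth was added after seeing the data. Promoters came from RefSeq (GRCm38.p6), matched by symbol, and no coordinates of the files were used.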

Additional observations from a re-analysis of the deposited data

How the results depend on the processing

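The cycling share of mesothelial-gate cells moved with the gates. With at least 3 cycle genes it was 43.3% in all and 44.2, 38.3 and 44.0% in tdTomato-neg eGFP+, tdTomato+ eGFP-neg and tdTomato-neg eGFP-neg. With at least 5 it was 32.7% in all and 33.2 and 32.2% in the tdTomato-neg eGFP+ and tdTomato-neg eGFP-neg populations. With at least 4 mesothelial genes it was 39.2% in all and 40.1% in tdTomato-neg eGFP+, and with no matrix gene 35.4% in all and 34.6% in tdTomato-neg eGFP-neg. In *Xist*-only cells it was 41.9% in all and 44.1 and 42.7% in tdTomato-neg eGFP+ and tdTomato+ eGFP-neg, and in Y-only cells 44.2% in all and 45.2, 47.8 and 45.9% in tdTomato-neg eGFP+, tdTomato+ eGFP+ and tdTomato-neg eGFP-neg. Thinned cells, with the gate applied again, gave 26.6% in all and 27.2, 20.0 and 27.0% in tdTomato-neg eGFP+, tdTomato+ eGFP-neg and tdTomato-neg eGFP-neg. Without 1 library the share in all was 36.8 to 37.8%. The number of genes called higher was 479, and between 437 and 526 without 1 library. It was 218 with a filter at 20 CPM, where fewer genes were tested, and 368 to 597 under the other alternatives. The number called lower was less stable. From 42, it was 64 against cells with 0 cycle genes, 68 with no matrix gene, 93 in *Xist*-only and 87 in Y-only cells, 12 with a pseudocount of 5 CPM, 19 with a filter at 20 CPM, 76 with no filter, 107 in thinned cells and 73 at matched depth, and 45 to 63 without 1 library. The cause was not tested. Of the 42, 29 were called again in thinned cells and 26 at matched depth. No called difference of a named gene changed sign under any alternative run. Cycling and non-cycling cells were compared within each library throughout, so those differences are paired by library. Between populations, no paired analysis was possible because each had 1 library. Depth limits genes of few UMIs in the tdTomato+ eGFP+ library, with 84 cycling and 106 non-cycling cells.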
